A study of Mus musculus with 12 samples.

Results

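The DNA replication and S phase genes described here were 52 gene symbols that serve the copying of DNA, chosen by a list of names and read as the rows that carry those names in a table of 38739 symbols. Their levels were compared between bone marrow-derived macrophages (BMDMs) of WT mice and of mice that lack cGAS (cGAS-/-), the cytosolic sensor of double-stranded DNA, both on the C57BL/6J background. Cells were untreated (UT, media control) or received lipopolysaccharide (LPS) of E. coli, and 3 RNA-seq libraries stood for each of WT UT, cGAS-/- UT, WT LPS and cGAS-/- LPS. The knockout was global, so the cells were without cGAS throughout their development in the marrow as well as in culture. The sample labels give LPS at 100 ng/mL for 1 h, whereas the study's methods describe a higher dose and a longer exposure, so dose and time are uncertain. The labels' extraction step also names neutrophils. The methods describe the animals of the study as male and 8 weeks old. How many mice gave marrow for these libraries is not given in the sources used here, and the legend of the study calls its 3 samples technical replicates. The p-values below therefore measure the spread between these libraries only.

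A cell that leaves G1 loads the MCM2-7 helicase onto origins with the help of ORC, CDC6 and CDT1. In S phase, CDC45 and the GINS complex turn the helicase on, polymerases epsilon and delta copy the strands on the PCNA clamp that RFC loads, and LIG1 seals the lagging strand. Ribonucleotide reductase, thymidine kinase and thymidylate synthase supply the deoxynucleotides. Many of these genes are transcribed in late G1 by E2F factors, and their RNAs are abundant in dividing cells and scarce in resting ones. BMDMs proliferate in response to M-CSF, and LPS is known to halt that growth. In a bulk library, fewer dividing cells and less of each RNA per cell cannot be told apart.

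Values were taken as TPM, the length-corrected share of each transcript in a library, averaged over the transcripts of a symbol. The unit was inferred from the values. Levels of different genes are for that reason not compared, and how many reads lie behind each level is unknown. The values of a library summed to between 447189 and 503156 in 11 libraries. WT LPS replicate 3 stood apart with a sum of 709802, in which the ferritin pseudogene Fth-ps3 held 31.7% and protein-coding genes 18.5%. Its log2 values correlated at r = 0.772 and 0.802 (Pearson, across genes within a library pair) with the other WT LPS libraries, against 0.911 between those. Cgas itself lay between 1.19 and 3.25 TPM in the 6 WT libraries and between 0.0703 and 0.290 TPM in the 6 cGAS-/- libraries. Of 12 macrophage markers, 9 were listed and none was at 0 in every library of a group. Their summed level, nearly all of it Lyz2, the lysozyme of macrophages and granulocytes, was 17300 to 18100 TPM in WT UT, 20600 to 22500 in cGAS-/- UT, 17000 to 26900 in WT LPS and 33900 to 34400 in cGAS-/- LPS.

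The windows around the transcription starts of these genes were searched for the letters that E2F factors are known to bind. Many of the genes are known as E2F targets, and most were called lower with LPS in WT cells (below). RefSeq windows of GRCm38.p6, from 250 bases before to 50 bases after a start, were at hand for 43 of the 52 genes. An E2F site was taken as TTTCCCGC, TTTCGCGC, TTTGCCGC or TTTGGCGC on either strand. Such letters stood in a window of 17 of the 43 genes (39.5%), against 704 of 27025 genes with a window (2.60%). A CCAAT box (CCAAT on either strand) stood in 25 of the 43 (58.1%) against 41.1% of all genes. The 250 bases before the start are printed for 5 genes on which the results turn, 5′ to 3′ on the strand of the gene, with E2F sites and CCAAT boxes in capitals. Mcm5 (chr8:75109259-75109508, plus strand) and Mcm6 (chr1:128359706-128359955, minus strand) were chosen as helicase subunits that hold several of these letters. Cdc6 (chr11:98907901-98908150, plus strand), Rrm2 (chr12:24708004-24708253, plus strand) and Tk1 (chr11:117826015-117826264, minus strand) are genes whose LPS effect was called different between genotypes. E2f8, the other gene called there, is not printed, and its window held a CCAAT box and no E2F letters.
Mcm5: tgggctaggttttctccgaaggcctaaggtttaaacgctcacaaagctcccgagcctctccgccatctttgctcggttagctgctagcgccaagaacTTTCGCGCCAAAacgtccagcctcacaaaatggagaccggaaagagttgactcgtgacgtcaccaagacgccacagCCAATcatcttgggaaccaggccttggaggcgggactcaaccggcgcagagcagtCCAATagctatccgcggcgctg
Mcm6: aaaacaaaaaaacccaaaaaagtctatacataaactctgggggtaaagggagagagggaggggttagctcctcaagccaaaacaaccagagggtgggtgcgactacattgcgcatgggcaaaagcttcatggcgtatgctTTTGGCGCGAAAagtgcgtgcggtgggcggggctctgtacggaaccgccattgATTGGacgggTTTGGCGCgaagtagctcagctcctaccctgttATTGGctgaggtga
Cdc6: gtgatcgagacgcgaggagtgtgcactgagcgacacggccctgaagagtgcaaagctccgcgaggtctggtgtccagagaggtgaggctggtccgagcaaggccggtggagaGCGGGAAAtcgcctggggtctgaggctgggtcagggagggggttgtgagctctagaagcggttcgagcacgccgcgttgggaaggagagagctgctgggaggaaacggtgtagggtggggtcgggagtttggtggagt
Rrm2: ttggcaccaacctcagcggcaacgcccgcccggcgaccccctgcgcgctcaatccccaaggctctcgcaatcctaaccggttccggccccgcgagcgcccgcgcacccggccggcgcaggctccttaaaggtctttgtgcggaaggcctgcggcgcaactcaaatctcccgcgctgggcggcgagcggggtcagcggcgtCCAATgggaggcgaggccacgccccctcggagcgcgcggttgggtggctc
Tk1: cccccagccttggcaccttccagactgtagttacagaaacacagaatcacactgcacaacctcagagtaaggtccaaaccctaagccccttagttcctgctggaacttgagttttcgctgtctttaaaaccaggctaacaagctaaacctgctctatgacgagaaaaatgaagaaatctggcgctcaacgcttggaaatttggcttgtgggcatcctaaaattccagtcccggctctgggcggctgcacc
The first run of capitals in Mcm5 is a pair of E2F sites on opposite strands that share bases, beginning 153 and 149 bases before the start. Mcm6 holds 3 E2F sites, which begin 110, 106 and 47 bases before the start, and the first and second of them overlap as well. Cdc6 holds 1, on the opposite strand. Rrm2 shows 1 CCAAT box and Tk1 neither motif, which says only that these letters are not in the window.

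**Figure D1:**
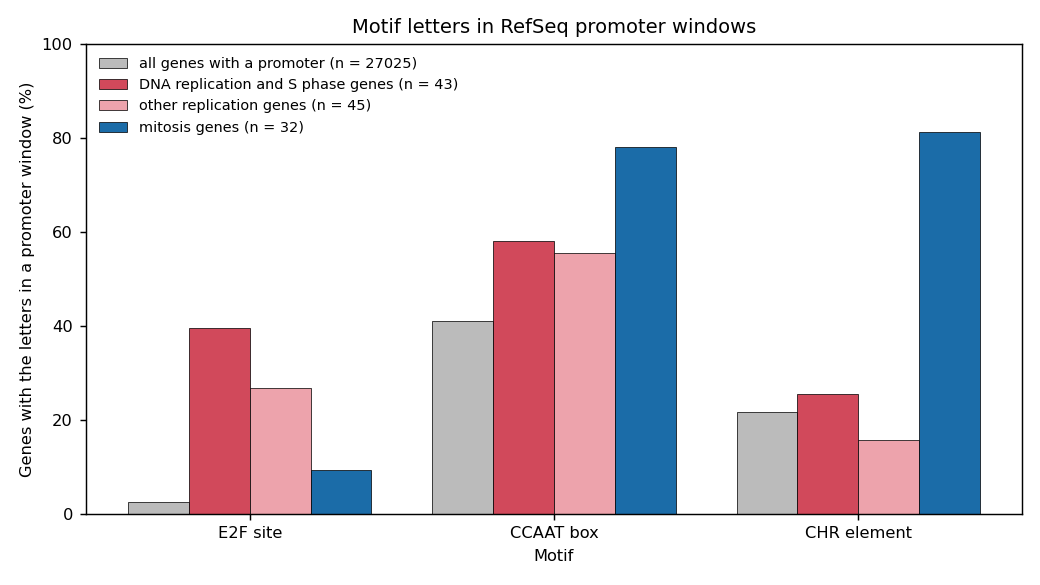
Share of genes (%) with the letters of an E2F site, a CCAAT box or a CHR element (TTTGAA or TTCGAA) in a RefSeq promoter window, for all genes with a window, the DNA replication and S phase genes, the other replication genes and the mitosis genes. The E2F letters stood in 39.5% of the DNA replication and S phase genes and 9.38% of the mitosis genes, and the CHR letters in 25.6% and 81.2%.

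Across the 4 groups the pattern was one of step-wise levels. The mean was highest in WT UT for 48 of the 52 genes, in cGAS-/- UT for Cdt1 and Pcna, and in WT LPS for Timeless and Tyms. For 46 genes the order of means was WT UT, then cGAS-/- UT, then both LPS groups. The share of all genes with this order was not counted. Of the genes kept for the tests below, 74.9% had a log2 fold change under 0 with LPS in WT and 67.3% in cGAS-/-. Averaged over the 52 genes, log2(TPM + 1) was 2.26 to 2.30 in the WT UT libraries, 1.71 to 1.75 in cGAS-/- UT, 0.86 to 1.25 in WT LPS and 1.11 to 1.13 in cGAS-/- LPS. The UT libraries of the genotypes were thus separate, and the cGAS-/- LPS libraries fell within the range of the WT LPS libraries. WT LPS replicates 1, 2 and 3 listed 5, 1 and 7 of the genes at 0, and no other library listed any at 0.

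**Figure D2:**
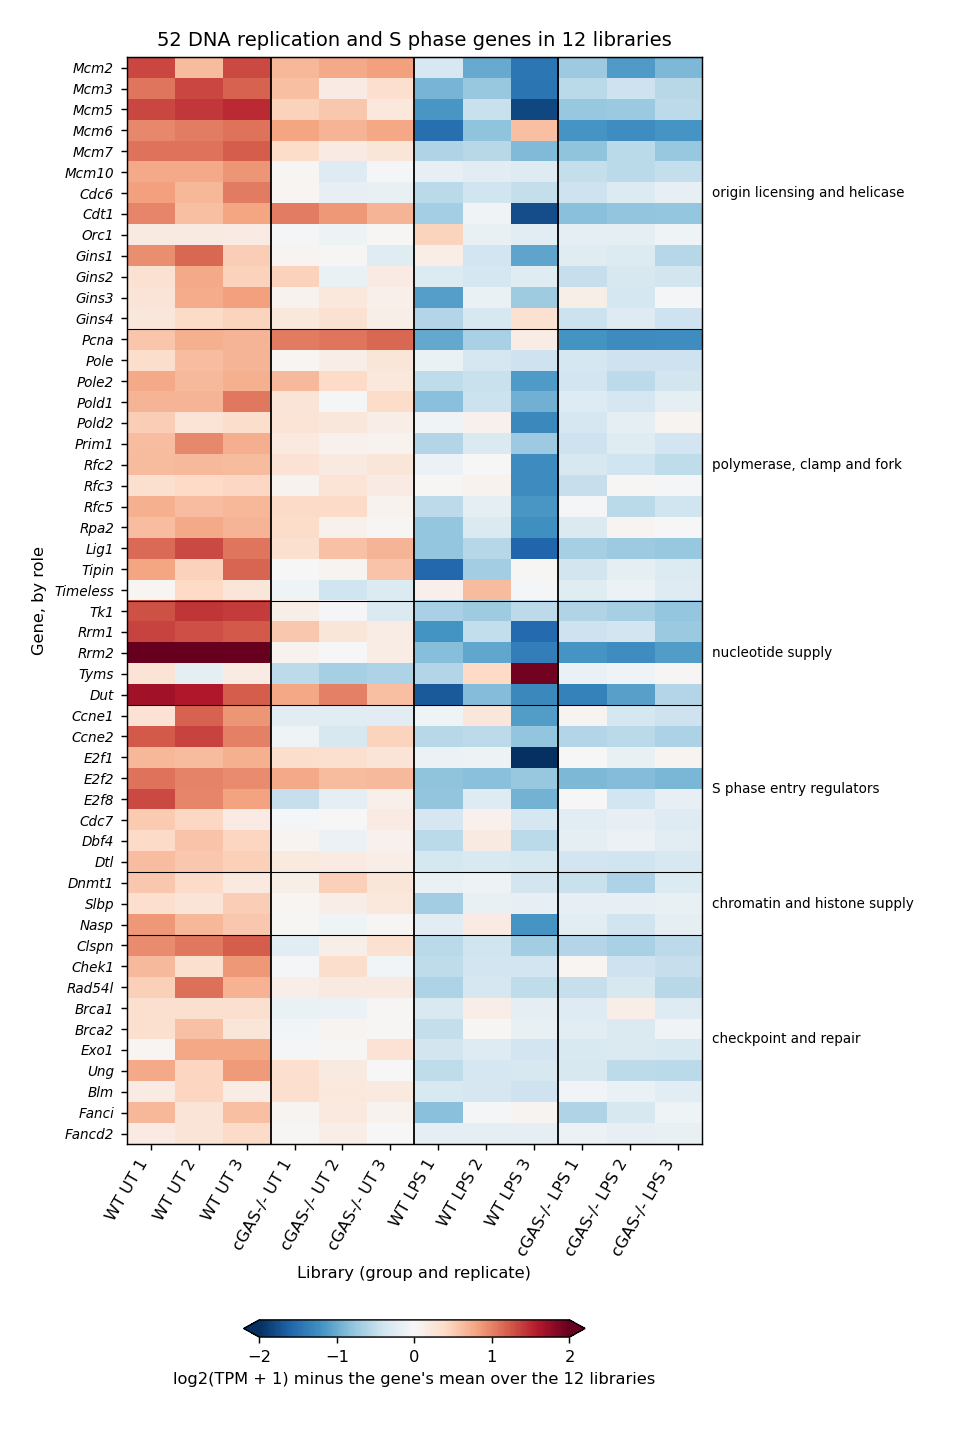
log2(TPM + 1) of each of the 52 genes (rows, by role) minus its mean over the 12 libraries (columns), from blue (below the mean) to red (above it), with colours held at 2 either way. The mean of the WT UT columns is the highest for 48 genes, single columns can depart from that (Mcm2 in WT UT replicate 2, Orc1 in WT LPS replicate 1), and WT LPS replicate 3 departs from its group for Pcna, Mcm6, Tyms, Gins4 and E2f1.

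For the tests, genes with at least 1 TPM (each library rescaled to a common total for this filter only) in 3 or more of the 12 libraries were kept. That left 11887 genes and 49 of the 52. Orc1, Cdc7 and Fancd2 did not pass, and 9 genes would not have passed without the WT UT libraries, the group in which they were highest: Mcm10, Cdc6, Pole, Ccne2, Clspn, Chek1, Brca1, Brca2 and Exo1. Their selection favours a difference from WT UT. Fold changes are differences in mean log2(TPM + 1), which understate the change of low values, and a gene was called at a limma Benjamini-Hochberg adjusted p under 0.05 over all 11887 genes. The comparisons share libraries: both UT groups enter the difference between genotypes as well as the LPS effects.

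The comparison of UT cells asked whether the absence of cGAS alone went with another level of these genes. The data show lower levels in cGAS-/- UT than in WT UT for single genes of several roles. On the log2(TPM + 1) scale the largest called differences were in Rrm2 and Tk1, both of nucleotide supply. Of the 49 tested genes, 8 were called lower and none higher (limma, adjusted p), where 1.58% of all tested genes were called lower and 0.252% higher. Of the 8, 4 (Mcm10, Cdc6, Ccne2 and Clspn) needed WT UT to pass the filter, and 4 of the other 40 genes were called lower, against 0.997% of the 10928 genes that pass without WT UT. Those 4 were Rrm2, Tk1, E2f8 and Mcm7, and the calls of E2f8 and Mcm7 were lost in 8 and 9 of 24 alternative settings. Without adjustment, 30 of the 49 had p under 0.05, against 8.08% of all tested genes. The log2 fold change was below 0 for 47 of the 49, against 55.6% of all tested genes. The median was -0.48 against -0.04 over all tested genes. The 3 libraries of cGAS-/- UT lay all below those of WT UT for 37 of the 49 genes, against 18.4% of all tested genes, and all above them for 1, Pcna, against 12.1%. Without the filter on low values, 7 of all 52 were called lower, against 0.831% of 23590 genes.

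On the log2(TPM + 1) scale, the largest differences were those of Rrm2 and Tk1, genes of nucleotide supply. The order by ratio of means can differ, since that scale understates low values. Tk1 averaged 5.85 TPM in WT UT and 1.55 TPM in cGAS-/- UT, E2f8 2.99 and 0.724 TPM, and Cdc6 1.75 and 0.429 TPM. Rrm2 (chromosome 12, 24757811 to 24764145 in GRCm39) encodes the small subunit of ribonucleotide reductase, whose level limits deoxynucleotide synthesis. It stood at 11.9, 11.3 and 9.93 TPM in WT UT and at 1.74, 1.64 and 1.90 TPM in cGAS-/- UT. The groups were far apart, with a mean 6.27 times higher in WT UT. The log2 fold change of -2.12 ± 0.18 (SE) had an adjusted p of 0.000123, and Rrm2 alone of the 49 also passed a log2 fold change beyond 2, as 0.337% of all tested genes did in this direction. Tk1 (chromosome 11, 117702770 to 117717042), the cytosolic thymidine kinase of S phase, stood at 5.41, 6.16 and 5.98 TPM in WT UT. In cGAS-/- UT it stood at 1.89, 1.60 and 1.18 TPM, below each WT library. Its log2 fold change was -1.43 ± 0.16 (adjusted p = 0.000806). The other 3 genes of nucleotide supply lay apart in the same direction without passing the test, where 18.4% of all tested genes lay apart in it. Rrm1, the large subunit of the reductase, averaged 9.07 ± 0.436 TPM (SD, n = 3) in WT UT and 4.14 ± 0.736 in cGAS-/- UT, Dut (dUTPase) 9.59 ± 1.72 and 5.50 ± 0.920, and Tyms (thymidylate synthase) 2.08 ± 0.496 and 0.913 ± 0.0992.

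Among regulators of S phase entry, 2 of 7 tested genes were called lower and all 7 lay apart in that direction, against 1.58% and 18.4% of all tested genes. Of the 2, Ccne2 needed WT UT to pass the filter. Ccne2, a cyclin E that activates CDK2 at the G1/S boundary, read 3.04, 3.43 and 2.48 TPM in WT UT and 0.631, 0.389 and 1.37 TPM in cGAS-/- UT, with a log2 fold change of -1.18 ± 0.20 (adjusted p = 0.0117). E2f8, an atypical E2F that represses transcription late in S phase, read 3.81, 2.79 and 2.39 TPM against 0.406, 0.683 and 1.08 TPM. No cGAS-/- library reached the lowest WT library for either gene. The log2 fold change of E2f8 was -1.22 ± 0.23 (adjusted p = 0.0220). The activator E2Fs were not called in the fit on all 12 libraries. E2f1 averaged 18.1 ± 0.583 and 13.8 ± 0.483 TPM and E2f2 3.12 ± 0.203 and 2.29 ± 0.158 TPM, with log2 fold changes of -0.37 (adjusted p = 1) and -0.33 (adjusted p = 0.508). From the 6 UT libraries alone E2f1 was called lower (adjusted p = 0.0125), and in WT LPS replicate 3, which is in neither group, E2f1 read 0.992 TPM against 10.0 and 10.1 TPM in the other WT LPS libraries. Ccne1 averaged 3.06 ± 1.20 against 0.963 ± 0.0157 TPM (adjusted p = 0.271).

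Of the 12 tested genes of origin licensing and the helicase, 3 were called lower and 8 lay apart in that direction, against 1.58% and 18.4% of all tested genes. Of the 3, Cdc6 and Mcm10 needed WT UT to pass the filter. Cdc6, which loads the helicase together with CDT1, stood at 1.67, 1.42 and 2.14 TPM in WT UT and 0.558, 0.356 and 0.374 TPM in cGAS-/- UT, a log2 fold change of -0.94 ± 0.15 (adjusted p = 0.00783). Mcm10, which joins the helicase when it starts to unwind DNA, stood at 1.56, 1.56 and 1.80 TPM against 0.550, 0.276 and 0.479 TPM (log2 fold change -0.88 ± 0.14, adjusted p = 0.00539). Mcm7 stood at 4.81, 4.83 and 5.32 TPM against 2.53, 2.06 and 2.23 TPM (log2 fold change -0.87 ± 0.17, adjusted p = 0.0215). The groups of all 3 genes were separate. The other helicase subunits, and the partner of CDC6, were not called. Mcm5 (9.14 ± 0.554 and 4.07 ± 0.571 TPM) and Mcm3 (11.2 ± 1.15 and 5.95 ± 1.05 TPM) were apart with log2 fold changes of -1.01 and -0.82 that missed the threshold (adjusted p = 0.170 and 0.124). Mcm6 averaged 23.4 ± 1.04 and 19.1 ± 0.878 TPM, a log2 fold change of -0.28. Mcm2 overlapped between groups at 4.38 to 7.80 and 4.52 to 5.13 TPM. Cdt1, which works with CDC6, overlapped as well, at 8.33, 6.25 and 7.24 TPM in WT UT and 8.72, 7.64 and 6.59 TPM in cGAS-/- UT, with a 95% interval of the log2 fold change from -0.70 to 0.83.

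None of the 13 genes of polymerases, clamp and fork was called. In this role 9 lay apart with lower values in cGAS-/- UT, against 18.4% of all tested genes. Their log2 fold changes reached down to -0.65 for Prim1, the catalytic subunit of primase (2.45 ± 0.435 and 1.19 ± 0.102 TPM, adjusted p = 0.0985). Pcna, the sliding clamp, stood out as the 1 gene with higher values in every cGAS-/- UT library, against 12.1% of all tested genes. It read 91.1, 102 and 99.7 TPM in WT UT and 128, 132 and 139 TPM in cGAS-/- UT. Its log2 fold change of 0.44 ± 0.28 had an adjusted p of 0.986. Of 9 checkpoint and repair genes, Clspn, the claspin adaptor of the CHK1 checkpoint, was called lower, against 1.58% of all tested genes. Clspn needed WT UT to pass the filter. It read 2.11, 2.34 and 2.74 TPM in WT UT and 0.383, 0.759 and 0.995 TPM in cGAS-/- UT (log2 fold change -1.002 ± 0.17, adjusted p = 0.0111). Blm, a helicase of homologous recombination, averaged 0.723 ± 0.190 and 0.718 ± 0.0927 TPM, and its log2 fold change was -0.00. None of Dnmt1, Slbp and Nasp, genes of chromatin and histone supply, was called, and Dnmt1, the maintenance DNA methyltransferase, overlapped between groups (9.31 to 12.1 and 8.80 to 11.6 TPM).

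**Figure D3:**
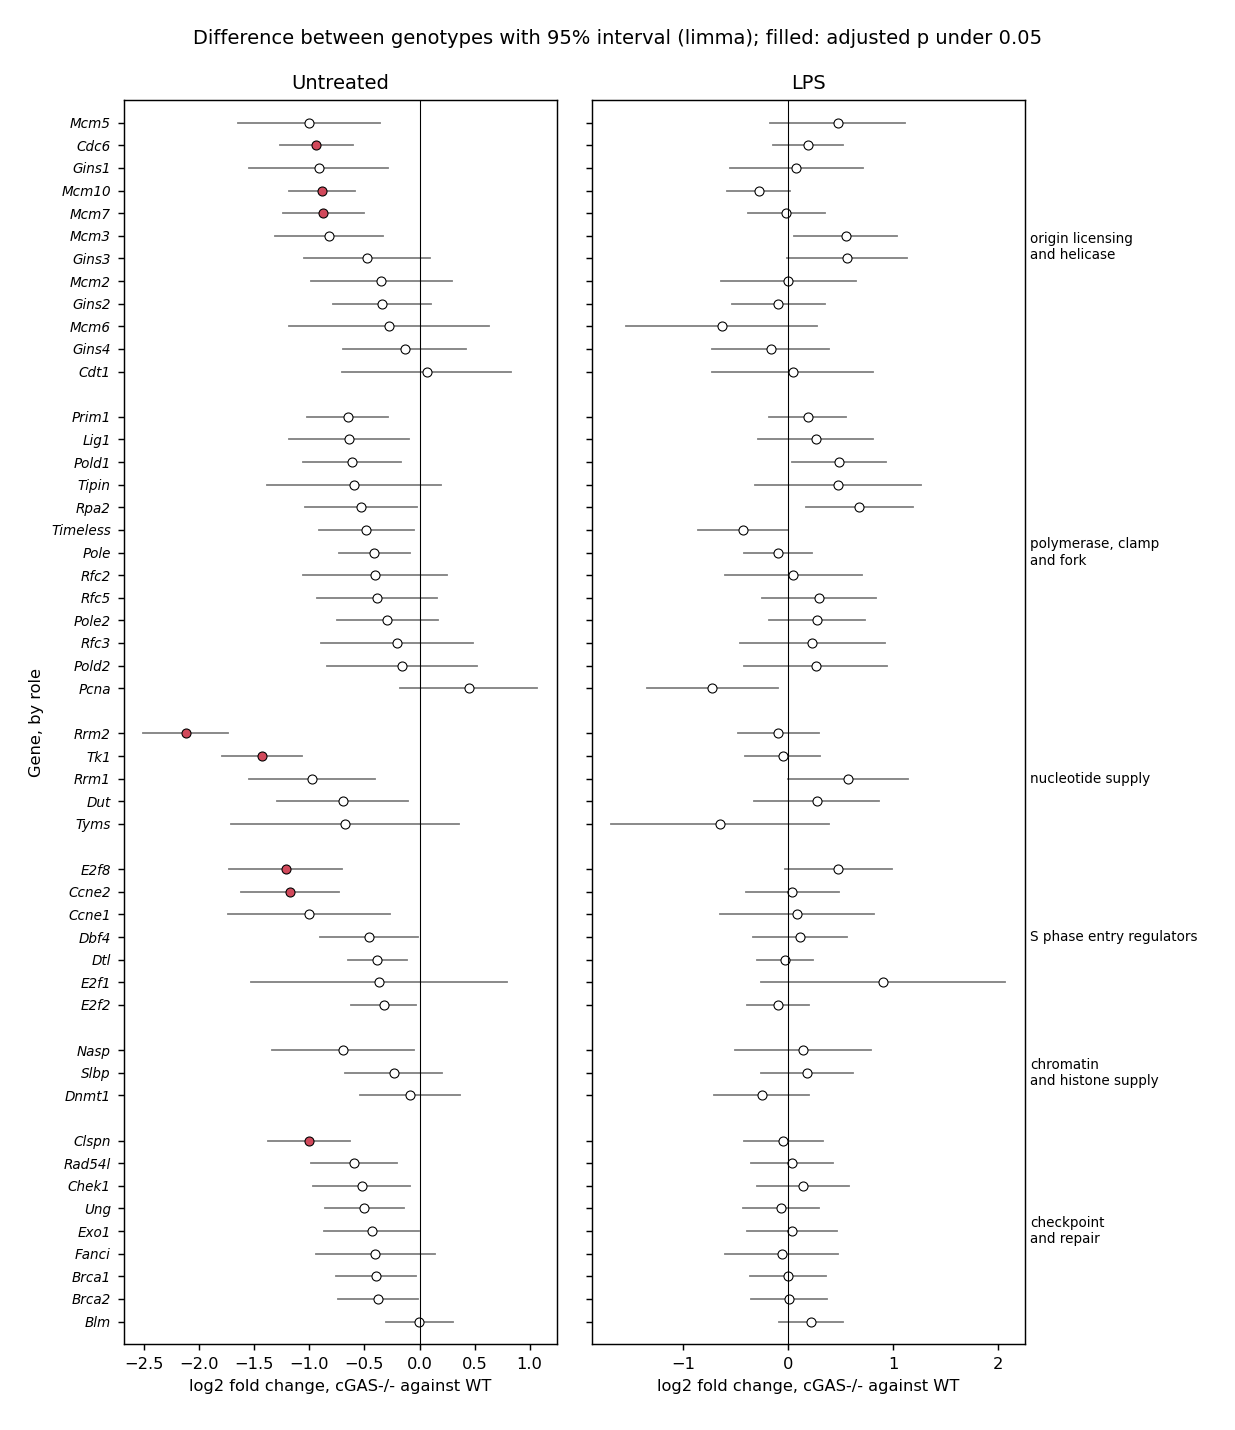
log2 fold change of cGAS-/- against WT (points) with its 95% interval (lines, limma) for the 49 tested genes by role, in UT cells (left) and LPS cells (right). Filled points have an adjusted p under 0.05. In UT cells 47 points lie below 0, where 55.6% of all tested genes did. Of them 8 are filled, from Rrm2 at -2.12 to Mcm7 at -0.87, whereas in LPS cells none is filled.

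The number of calls in UT cells depended on which libraries set the spread. From the 6 UT libraries alone, 21 of the 49 were called lower and Pcna higher (adjusted p = 0.00891), against 7.07% and 3.37% of all tested genes. Leaving out WT LPS replicate 3, which is in neither group, gave 18 lower and Pcna higher, against 4.17% and 1.15%. Leaving out WT UT replicate 2, cGAS-/- UT replicate 1 or cGAS-/- UT replicate 2 left 5, 4 and 5 called lower, where 1.03% of all tested genes were called in either direction in each case, against 1.83% with every library. Reads of some called genes could be shared with copies: 57.7% of the Rrm2 transcript matched other annotated genes at 95% identity or more over at least 100 bases, as did 69.8% of Pcna, 25.1% of Cdc6, 21.1% of E2f8, 19.6% of Tk1 and 14.7% of Ccne2. For Mcm7, 2666 of the 2962 bases of the transcript matched 4 other genes, most of them in Gm5487 (72.8%). The levels of these genes are uncertain to that extent.

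Markers of other marrow cells moved with the same comparison. The summed level of 9 listed B cell markers was 109 to 135 TPM in WT UT and 20.2 to 28.7 TPM in cGAS-/- UT, nearly all of it Igkc and Ighm, while Pax5 was at or under 0.0221 TPM in each of these 6 libraries and Rag1 was listed at 0. The 8 listed markers of neutrophils and granulocyte precursors summed to 139 to 213 TPM against 52.9 to 126 TPM, with Elane at 0.774 to 0.945 TPM in WT UT and listed at 0 in each cGAS-/- UT library. The 8 progenitor markers went the other way, from 6.09 to 7.23 TPM up to 19.4 to 22.7 TPM, nearly all of it Sox4. The 7 listed erythroid markers overlapped (4.96 to 9.26 and 5.08 to 17.9 TPM), and 9 T and NK cell markers summed to at most 1.25 TPM. Of the macrophage markers, Mrc1 was called lower in cGAS-/- UT (73.4 to 85.2 and 23.5 to 25.6 TPM, adjusted p = 0.0121) and Cx3cr1 higher (5.93 to 6.69 and 17.2 to 18.4 TPM, adjusted p = 0.00645). The part of these markers in the lower levels of replication genes was not tested.

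**Figure D4:**
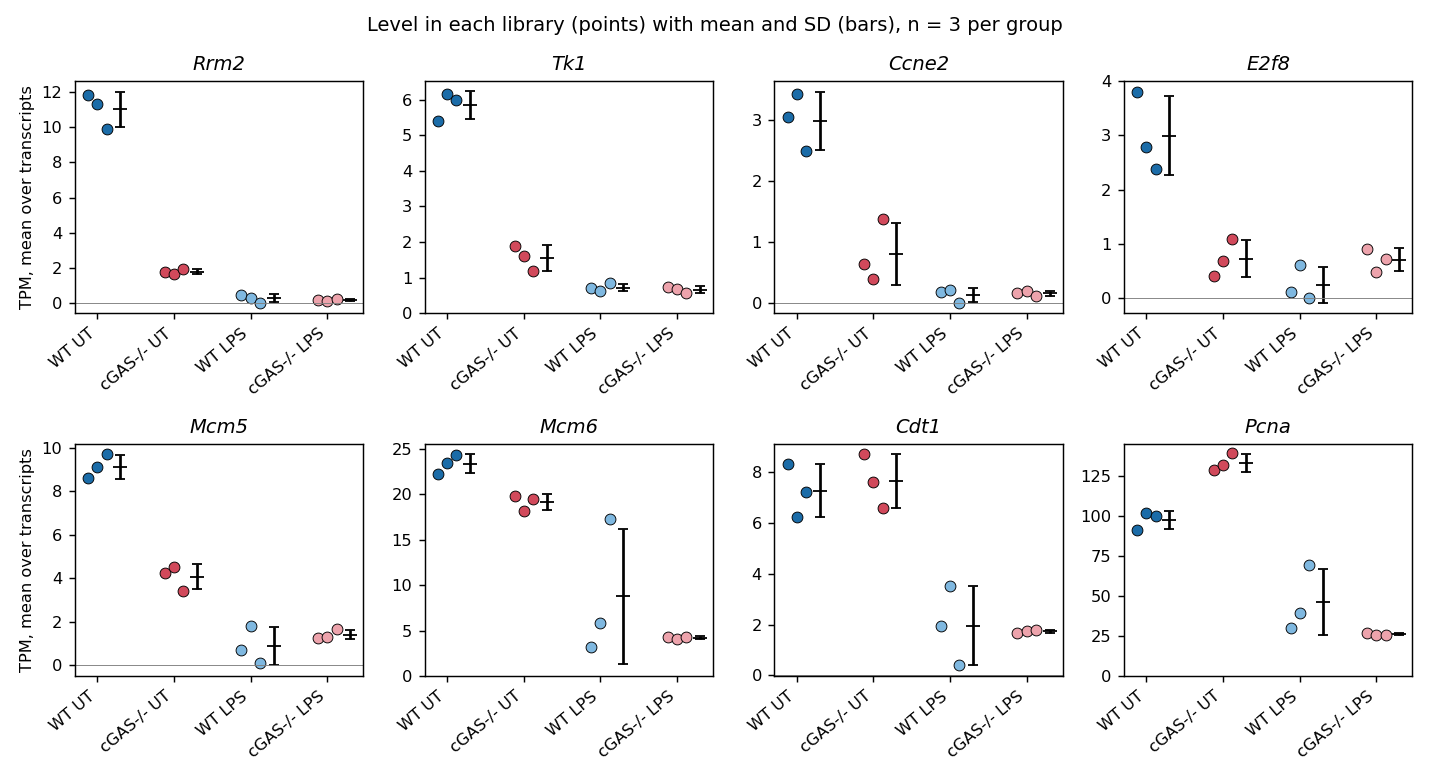
Level in TPM of 8 genes in each of the 12 libraries (points) with the mean and SD of each group (bars, n = 3), on linear axes. Rrm2, Tk1, Ccne2 and E2f8 separate the UT genotypes and are low in both LPS groups, Cdt1 does not separate the UT genotypes, and Pcna is higher in cGAS-/- UT (128 to 139) than in WT UT (91.1 to 102).

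LPS in WT cells went with lower levels of most of these genes, in each of the 6 roles. Of the 49 tested genes, 42 were called lower and none higher (limma, adjusted p), where 23.3% of all tested genes were called lower and 4.31% higher. Of the 42, 8 needed WT UT to pass the filter, and 34 of the other 40 genes were called lower, against 23.2% of the 10928 genes that pass without WT UT. Of the 34, Rrm2, E2f2, Dtl, Rad54l, Ung and Blm passed the filter in UT libraries alone, which favours a fall with LPS. The median log2 fold change was -1.25 against -0.46 over all tested genes. The 3 WT LPS libraries lay below the 3 WT UT libraries for 46 genes, against 32.9% of all tested genes, and Gins4, Timeless and Tyms overlapped. None lay above, against 5.31%. In this comparison the whole table was displaced, and scaling by TMM factors moved the median of all tested genes from -0.46 to -0.14 and that of the 49 genes to -0.95. With TMM factors 30 of the 49 were called lower, against 12.6% of all tested genes.

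By role, where 23.3% of all tested genes were called lower, all 7 tested regulators of S phase entry and 11 of 12 genes of licensing and the helicase were. So were 8 of 9 of checkpoint and repair, 10 of 13 of polymerases, clamp and fork, 4 of 5 of nucleotide supply and 2 of 3 of chromatin and histone supply. Past a log2 fold change of 2 as well were 7 genes, against 2.89% of all tested genes. Rrm2 fell to 0.452 and 0.277 TPM and was listed at 0 in the third WT LPS library, a log2 fold change of -3.29 ± 0.18 (adjusted p = 1.34e-06). Dut, which keeps uracil out of DNA, read 10.9, 10.3 and 7.63 TPM in WT UT and 0.157, 1.05 and 0.525 TPM in WT LPS (log2 fold change -2.77 ± 0.27, adjusted p = 4.22e-05). Each WT LPS library was below each WT UT library in both genes. Mcm5 read 8.60, 9.11 and 9.71 TPM against 0.694, 1.81 and 0.0769 TPM (log2 fold change -2.55 ± 0.29, adjusted p = 0.000143). Rrm1 read 9.52, 9.03 and 8.65 TPM against 0.793, 1.92 and 0.403 TPM (log2 fold change -2.37 ± 0.26, adjusted p = 0.000105). In Mcm5 and Rrm1 the second WT LPS library was the highest of its group and the third the lowest. Mcm3, Lig1 (DNA ligase I) and Mcm2 completed the 7, with log2 fold changes of -2.24, -2.15 and -2.02 and adjusted p of 4.88e-05, 0.000148 and 0.000633.

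E2f2 and Tk1 were more even between libraries. E2f2 stood at 3.35, 3.06 and 2.95 TPM in WT UT and 0.170, 0.142 and 0.207 TPM in WT LPS (log2 fold change -1.81 ± 0.14, adjusted p = 8.03e-06), and Tk1 at 0.700, 0.627 and 0.835 TPM in WT LPS (log2 fold change -1.99 ± 0.16, adjusted p = 1.45e-05). Genes that were not called were Gins4, Pold2, Rfc3, Timeless, Tyms, Dnmt1 and Brca1. Timeless, of the fork protection complex, stood at 0.994 ± 0.246 TPM in WT UT and 1.02 ± 0.516 TPM in WT LPS, while its partner Tipin was called lower (8.37 ± 2.28 and 2.44 ± 1.79 TPM, adjusted p = 0.00964). Tyms read 0.931, 2.83 and 10.0 TPM in the WT LPS libraries against 1.53 to 2.48 TPM in WT UT. The value of replicate 3 was the highest of all 12 for that gene, and without that library the log2 fold change of Tyms was -0.17 in place of 0.51. Without WT LPS replicate 1 it was 1.09, with an adjusted p of 0.0492.

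At the fork, most genes of WT cells fell with LPS. Lig1 read 5.93, 6.90 and 5.66 TPM in WT UT and 0.847, 1.13 and 0.0537 TPM in WT LPS. Pold1, the catalytic subunit of polymerase delta, read 3.44, 3.48 and 4.79 TPM against 0.563, 1.07 and 0.433 TPM (log2 fold change -1.55, adjusted p = 0.000321). Rpa2 read 2.99, 3.39 and 3.15 TPM against 0.519, 1.12 and 0.111 TPM (log2 fold change -1.45, adjusted p = 0.00119). The groups of these genes were separate, with replicate 3 the lowest WT LPS library in each. Pole2 and Prim1 fell by 1.41 and 1.30 on the log2 scale (adjusted p = 0.000738 and 0.000291). Of the clamp loader, Rfc2 and Rfc5 were called lower (-1.10 and -1.28, adjusted p = 0.0198 and 0.00372), whereas Rfc3 was not (2.98 to 3.25 TPM in WT UT, and 2.24, 2.37 and 0.340 TPM in WT LPS, adjusted p = 0.0899). Reads of Rfc5 may be shared, since 87.0% of its transcript matched 22 other genes, with 56.8% in Wsb2. Among the other genes called lower here, the matched share was 69.1% for Gins2, 49.1% for Slbp, 40.2% for Rfc2 and 28.2% for Rad54l. Pold2 showed the same split, at 2.20, 2.55 and 0.375 TPM in WT LPS (adjusted p = 0.0763).

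Genes of checkpoint and repair fell from low levels. Clspn read 0.115 and 0.225 TPM in WT LPS and was listed at 0 in replicate 3 (log2 fold change -1.61, adjusted p = 8.04e-05). Rad54l, a gene of homologous recombination, read 1.26, 2.48 and 1.62 TPM in WT UT and 0.0491, 0.285 and 0.137 TPM in WT LPS (-1.25, adjusted p = 0.000552). Ung, the uracil glycosylase, read 1.56, 1.05 and 1.73 TPM against 0.0667, 0.201 and 0.214 TPM (-1.07, adjusted p = 0.000872). For all 3 the WT groups were apart. Brca1 was apart as well, at 0.736 to 0.741 TPM and 0.129 to 0.520 TPM, and missed the threshold (-0.44, adjusted p = 0.0645). The GINS subunits Gins1, Gins2 and Gins3 were called lower (-1.29, -0.80 and -1.25), while Gins4 overlapped at 34.3 to 40.3 TPM and 19.2 to 36.3 TPM. The calls of E2f1, Fanci, Ccne1 and Brca2 were each lost under 8 or more of the alternative settings.

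Markers of other cells moved with LPS in WT cells too. The summed B cell markers stood at 109 to 135 TPM in WT UT and 30.7 to 45.3 TPM in WT LPS, the progenitor markers at 6.09 to 7.23 and 0.617 to 0.828 TPM, and the neutrophil and granulocyte precursor markers at 139 to 213 and 35.5 to 353 TPM. In cGAS-/- LPS the B cell markers summed to 3.13 to 8.96 TPM and the progenitor markers to 0.892 to 1.18 TPM, each below the range of cGAS-/- UT given above. The neutrophil and granulocyte precursor markers summed to 46.4 to 60 TPM against 52.9 to 126 TPM in cGAS-/- UT. Of the 6 tested, 4 had a log2 fold change below 0 in cGAS-/-. The 1 called was Camp, an antimicrobial peptide of granules, which was higher (0 to 0.650 TPM in UT and 2.76 to 4.92 TPM with LPS, adjusted p = 0.0112). In WT, 3 of the 6 were called lower with LPS and none higher, against 23.3% and 4.31% of all tested genes. Of the 9 macrophage markers, 4 were called lower and 2 higher with LPS in WT, against 23.3% and 4.31% of all tested genes. In cGAS-/- 3 of these markers were called lower and 4 higher, against 9.06% and 4.76%. Their part in the lower levels with LPS was not tested.

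WT LPS replicate 3 was also unlike its group for other genes. It held Pcna at 69.1 TPM, Mcm6 at 17.3 TPM and Gins4 at 36.3 TPM, where replicates 1 and 2 held 29.9 and 39.4, 3.23 and 5.83, and 19.2 and 23.3 TPM. It held E2f1 at 0.992 TPM and Cdt1 at 0.392 TPM, where the others held 10.0 and 10.1, and 1.96 and 3.52 TPM. Without this library 43 genes were called lower, against 26.5% of all tested genes. From the 6 WT libraries alone 23 were called lower, against 4.62%. Of the genes that the filter had left out, Fancd2 was listed at 0 in all 3 WT LPS libraries and at 0.276 to 0.482 TPM in WT UT, and Orc1 read 0.645 TPM in WT LPS replicate 1, above each WT UT library (0.346 to 0.368 TPM).

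LPS in cGAS-/- cells went with lower levels of 6 of 12 genes of licensing and the helicase, of 3 of 5 genes of nucleotide supply (Rrm2, Dut and Tk1), and of Pcna and E2f2, from UT levels that were mostly below those of WT. Of the 49, 19 were called lower and none higher (limma, adjusted p), where 9.06% of all tested genes were called lower and 4.76% higher. Of the 19, 2 needed WT UT to pass the filter. Of the other 40 genes 17 were called lower, against 9.64% of the 10928 genes that pass without WT UT. Pole, Rrm2, E2f2, Dtl, Clspn, Rad54l and Ung, all called lower, passed the filter in UT libraries alone, which favours a fall with LPS. The median log2 fold change was -0.53 against -0.20 over all tested genes, and 39 genes lay apart in the lower direction, against 40.2% of all tested genes. Tyms was the 1 gene with higher values in every LPS library, against 15.5%. TMM factors moved the median of all tested genes from -0.20 to -0.00 and that of the 49 genes to -0.34, with 12 called lower, against 6.72%.

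Pcna changed most. It stood at 128, 132 and 139 TPM in cGAS-/- UT and at 26.6, 25.4 and 25.7 TPM in cGAS-/- LPS, with a log2 fold change of -2.32 ± 0.28 (adjusted p = 0.000235). It was the 1 gene past both thresholds, as were 1.56% of all tested genes in this direction. Mcm6 read 19.8, 18.1 and 19.5 TPM against 4.29, 4.07 and 4.29 TPM (log2 fold change -1.95 ± 0.41, adjusted p = 0.00876), and with TMM factors it was not called (adjusted p = 0.0638). Dut, Mcm2, Cdt1 and E2f2 followed with log2 fold changes of -1.80, -1.68, -1.65 and -1.58 and adjusted p of 0.000974, 0.00264, 0.00825 and 1.85e-05. For all of these genes the LPS libraries lay below the UT libraries. Rrm2 fell from 1.74, 1.64 and 1.90 TPM to 0.150, 0.103 and 0.200 TPM (log2 fold change -1.26 ± 0.18, adjusted p = 0.000585). Tk1 fell from 1.55 ± 0.358 to 0.658 ± 0.0935 TPM (adjusted p = 0.0285), a call lost in 9 of 24 alternative settings, TMM factors among them (adjusted p = 0.157). Cdc6, Gins1, Gins3, Rpa2, Timeless, Ccne1, E2f8, Chek1 and Brca1 overlapped between UT and LPS. E2f8 stood at 0.406, 0.683 and 1.08 TPM in cGAS-/- UT and 0.912, 0.486 and 0.719 TPM in cGAS-/- LPS.

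Fork and repair genes of cGAS-/- cells were called lower in 4 of 13 and 3 of 9 cases, against the 9.06% of all tested genes. Lig1 read 2.98, 3.75 and 4.08 TPM in cGAS-/- UT and 1.01, 0.911 and 0.867 TPM in cGAS-/- LPS (log2 fold change -1.25, adjusted p = 0.00586). Clspn fell from 0.383 to 0.995 TPM to between 0.0264 and 0.124 TPM (-0.66, adjusted p = 0.0252). Pole and Pole2, subunits of polymerase epsilon, fell by 0.53 and 0.84 on the log2 scale (adjusted p = 0.0336 and 0.0204). The call of Pole was lost in 10 of 23 alternative settings, that of Pole2 in 7 of 24 and that of Clspn in 6 of 23. Dnmt1, Mcm5 and Rad54l lost theirs in 14 of 24, 12 of 24 and 12 of 23. Groups that were apart without a call included Pold1, at 1.71 to 2.61 and 1.21 to 1.46 TPM (adjusted p = 0.190).

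The 6 cGAS-/- libraries alone gave 31 lower and Tyms higher, against 32.0% and 12.7% of all tested genes. Leaving out WT LPS replicate 3, which is in neither group, gave 29 lower, against 21.6%. Leaving out cGAS-/- UT replicate 1, 2 or 3 left 10, 11 and 13, and leaving out cGAS-/- LPS replicate 1, 2 or 3 left 10, 9 and 10. In these 6 settings 8.58% to 9.02% of all tested genes were called in either direction, against 13.8% with every library.

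With LPS, the genotypes were not told apart on these genes. None of the 49 was called (limma, adjusted p), where lower calls in cGAS-/- LPS made up 1.00% and higher calls 1.36% of all tested genes, and 5 of the 49 had an unadjusted p under 0.05, against 18.8% of all tested genes. The median log2 fold change was 0.05 against 0.20 over all tested genes. The sign of the median turned without WT LPS replicate 3 (-0.01) and when libraries were quantile normalized (-0.05). Groups overlapped for 42 genes. Mcm10, Pcna, Timeless and E2f2 were lower in each cGAS-/- LPS library, and Mcm3, Pold1 and Blm higher, against 5.17% and 12.6% of all tested genes. Pcna read 29.9, 39.4 and 69.1 TPM in WT LPS and 25.4 to 26.6 TPM in cGAS-/- LPS (adjusted p = 0.215). Rpa2, a subunit of the single-strand binding protein RPA, read 0.519, 1.12 and 0.111 TPM in WT LPS and 1.11, 1.68 and 1.58 TPM in cGAS-/- LPS (log2 fold change 0.68, adjusted p = 0.170). The spread of WT LPS sets wide limits, with 95% intervals of the log2 fold change that reach from -1.68 for Tyms to 2.07 for E2f1. Rrm2 had an interval from -0.48 to 0.29 and Tk1 from -0.41 to 0.31. With LPS, Rrm2 lay at 0 to 0.452 TPM and Tk1 at 0.559 to 0.835 TPM. At such low levels log2(TPM + 1) narrows the interval. Without WT LPS replicate 2, Mcm3, Mcm5, Gins3, Pold1, Rpa2, Rrm1 and E2f8 were called higher in cGAS-/- LPS, against 23.9% of all tested genes.

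The difference of the LPS effects, tested as the interaction of genotype and treatment, was above 0 for 44 of the 49 genes. There the fold change was less negative or more positive in cGAS-/- than in WT cells. Of all tested genes, 31.8% lay below 0. Of the 49, 4 were called higher and none lower (limma, adjusted p), where 0.732% of all tested genes were called higher and 0.168% lower. Cdc6 needed WT UT to pass the filter, and 3 of the 40 genes that did not were called higher, against 0.604% of the 10928. The median was 0.60 against 0.27 over all tested genes. Rrm2 fell by 3.29 on the log2 scale in WT and by 1.26 in cGAS-/-, a difference of 2.03 ± 0.25 (adjusted p = 0.00330), and was the 1 gene past both thresholds, against 0.311%. E2f8 differed by 1.69 ± 0.33 (adjusted p = 0.0430), Tk1 by 1.38 ± 0.23 (adjusted p = 0.0207) and Cdc6 by 1.12 ± 0.21 (adjusted p = 0.0395). In all 4 genes the LPS levels of the genotypes overlapped and the UT levels were apart, so the differences carry the UT values given above. Pcna stood at the other end with -1.17 ± 0.40 (adjusted p = 0.292), and Mcm6, Cdt1, Gins4 and Dnmt1 were the other genes below 0. Without WT LPS replicate 3, 8 genes were called higher and Pcna lower (-0.84, adjusted p = 0.0198), against 2.92% and 1.64% of all tested genes. Without WT LPS replicate 2, 16 were called higher, against 11.4%. Leaving out any other single library left 1 or 2, where 0.353% to 0.993% of all tested genes were called in either direction, against 0.900% with every library.

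**Figure D5:**
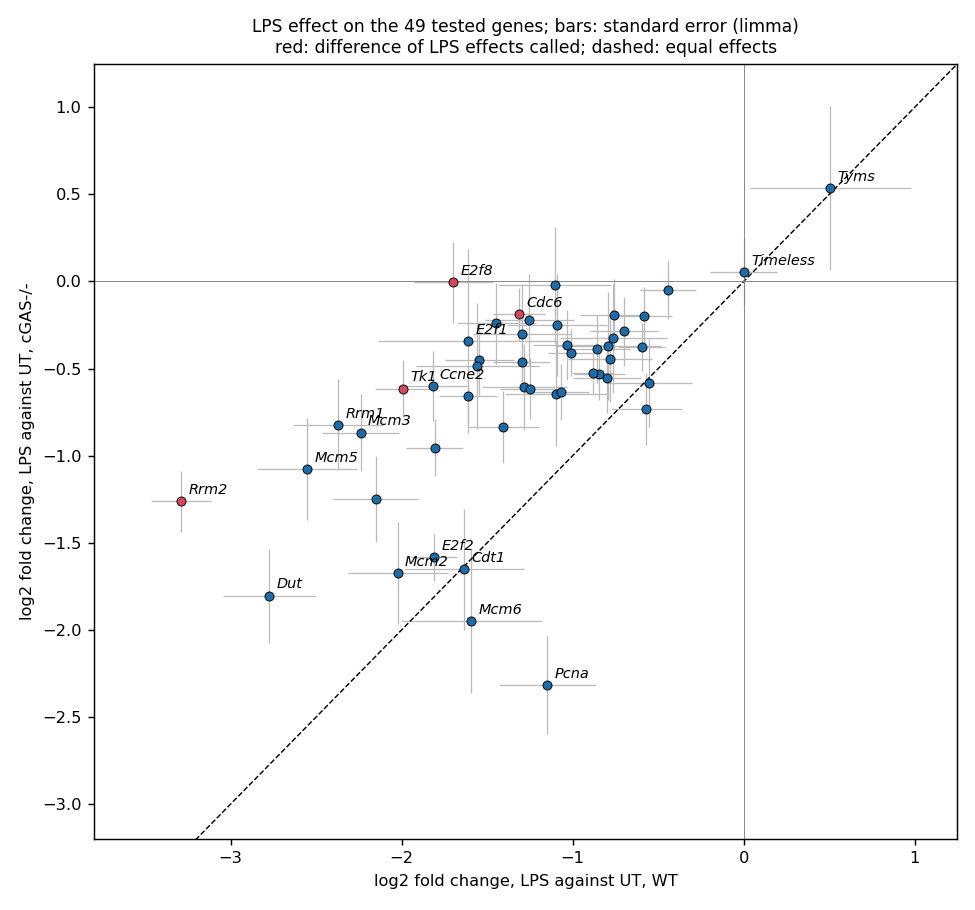
log2 fold change of LPS against UT in WT (x) and in cGAS-/- (y) for the 49 tested genes, with standard errors (limma) and a dashed line of equal effects. Points above the line, 44 of the 49, had the less negative or more positive change in cGAS-/-. Of all tested genes, 31.8% had a difference below 0. Red points are the 4 called genes Rrm2, E2f8, Tk1 and Cdc6. Pcna, at -1.15 and -2.32, lies farthest below the line.

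Further genes of the cell cycle were read from 3 lists. A list of 56 further replication genes had 34 in the table and 32 tested. In UT cells 3 of them were called lower in cGAS-/- and none higher, against 1.58% and 0.252% of all tested genes. Among them was Bard1, the partner of BRCA1 (log2 fold change -1.05, adjusted p = 0.0113). In WT cells LPS went with 16 called lower, against 23.3% of all tested genes, led by Gmnn, the inhibitor of CDT1 (-2.29), the histone chaperone Asf1b (-2.15) and Rpa1 (-1.84). Dck, a deoxycytidine kinase of the salvage pathway, was called higher with LPS in WT (1.22, adjusted p = 0.0335) and in cGAS-/- (1.54, adjusted p = 0.0181). In cGAS-/- cells 1 of the 32 was called lower with LPS, against 9.06% of all tested genes. With LPS none of the 32 was called between genotypes.

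Of 25 regulators of G1, 22 were in the table and 20 tested. None was called between genotypes in UT or LPS cells. In UT cells 8 of the 20 lay apart in the lower direction and 3 in the higher, against 18.4% and 12.1% of all tested genes. Cdkn2c, an inhibitor of CDK4 and CDK6, read 14.1, 12.3 and 12.6 TPM in WT UT and 3.87, 3.30 and 5.67 TPM in cGAS-/- UT (log2 fold change -1.43, adjusted p = 0.103). Ccnd1, the cyclin D that starts the passage through G1, read 29.6, 33.4 and 33.0 TPM in WT UT and 33.8, 37.7 and 35.7 TPM in cGAS-/- UT. With LPS it read 2.67, 4.86 and 0.573 TPM in WT and 1.30, 1.81 and 1.52 TPM in cGAS-/-. It was called lower with LPS in both genotypes (log2 fold change -3.35 in WT and -3.85 in cGAS-/-), as were the CDK inhibitors Cdkn1c (-2.51 and -2.30) and Cdkn2c (-2.66 and -1.29). In WT cells 10 of the 20 were called lower and Ccnd2 higher, against 23.3% and 4.31% of all tested genes, and in cGAS-/- cells 3 lower and none higher, against 9.06% and 4.76%.

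Of 36 mitosis genes, 32 were in the table and 31 tested. In UT cells 20 were called lower in cGAS-/-, against 1.58% of all tested genes, 5 of them with a log2 fold change beyond 2, and the median was -1.06. For the DNA replication and S phase genes the median was -0.48. Mki67, the proliferation antigen, read 12.6, 13.3 and 12.3 TPM in WT UT and 1.88, 2.51 and 2.01 TPM in cGAS-/- UT. With LPS, 30 mitosis genes were called lower in WT and 12 in cGAS-/-, against 23.3% and 9.06% of all tested genes. Between genotypes with LPS none was called, with groups apart for 1 in the lower and 3 in the higher direction, against 5.17% and 12.6% of all tested genes. The difference of LPS effects was called higher for 12, against 0.732%. The gap between the lists was not tested.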

How the data were processed

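RNA of BMDMs was measured in 12 RNA-seq libraries, 3 for each genotype and treatment. Per the labels and the methods, the authors trimmed reads with fastp, mapped them with STAR (GRCm39) and used Kallisto for quantification, and the versions are not given in the sources used here. The deposited values were treated as TPM, each the average of a symbol's transcripts. They are not counts, so no count model was run, the depth is unknown and no counting interval is given. The table covers chromosomes 1 to 12 and a part of 13, and genes beyond that are not analysed here. Groups came from the sample labels.

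Values were taken as log2(TPM + 1). Genes with at least 1 TPM in 3 or more libraries, after rescaling to a total of 1e+06 for the filter, were tested with limma 3.58.1 in R 4.3.3, with a mean per group over all 12 libraries, moderated variances with a trend and Benjamini-Hochberg adjustment over 11887 genes. The fit was tested on simulated data in which all libraries of a gene shared the same spread. That test does not cover the unequal spread of the WT LPS libraries. There were 5 comparisons and up to 25 alternative settings each. Calls use adjusted p under 0.05, and the log2 fold change of 2 is the second threshold of the methods. Every gene of the set may be named, with full statistics for called genes and for the 6 largest changes of a comparison, and of the comparison lists the 3 called genes with the largest change. Pcna, Tyms, Cdt1, Ccnd1, Cdkn2c, Mki67, Mrc1, Cx3cr1, Elane and Camp, and library values that stood apart, were singled out after their values were seen. The genes, lists and markers were chosen with earlier results of these data known.

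Positions are those of GENCODE vM39. Transcripts were compared with those of other genes by blastn 2.17.0 (95% identity, 100 bases or more). Promoter windows are RefSeq's of GRCm38.p6. Some genes of the marker and comparison lists are not reported here.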

Additional observations from a re-analysis of the deposited data

Results flagged for a closer look

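The LPS effect on 4 genes differed between genotypes by the interaction term of limma. Rrm2 differed by 2.03 (adjusted p = 0.00330), E2f8 by 1.69 (adjusted p = 0.0430), Tk1 by 1.38 (adjusted p = 0.0207) and Cdc6 by 1.12 (adjusted p = 0.0395) on the log2 scale, each with the smaller fall in cGAS-/- cells. Under the alternative settings the adjusted p ranged from 0.00019 to 0.338 for Rrm2, from 0.00635 to 0.206 for E2f8, from 0.00289 to 0.144 for Tk1 and from 0.00706 to 0.153 for Cdc6. Rrm2 was called in 22 of 23 settings, Tk1 in 11 of 23, E2f8 in 7 of 23 and Cdc6 in 6 of 22. Single outlying libraries were not looked for by a test, since groups held 3. Cdc6 passed the filter on low values only with the WT UT libraries, in which it was highest.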

How the results depend on the processing

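No called gene changed direction under any setting run. The shares below are of all tested genes, called in either direction. In UT cells the 8 genes called between genotypes (share 1.83%) became 1 with a pseudocount of 0.1 (0.774%), 4 with a filter of 5 TPM (1.46%), 22 from the 6 samples alone (10.4%) and 27 with sample weights (11.5%), and 1 (Rrm2) passed both thresholds. Leaving out 1 sample gave 4 to 19 (1.03% to 5.33%). Tk1 was called in all 24 settings and Rrm2 in 23, whereas Mcm7 was lost in 9 and E2f8 in 8. With LPS, the count of 0 between genotypes (2.36%) ranged from 0 to 7 when 1 sample was left out (0.648% to 27.9%), and was 0 in every other setting. For LPS in WT, 42 (27.6%) became 27 with a filter of 5 TPM (32.7%), 23 from the 6 samples alone (6.02%) and 7 at both thresholds, and 32 to 46 when 1 sample was left out (16.5% to 48.7%). For LPS in cGAS-/-, 19 (13.8%) became 12 with TMM factors (13.5%), 32 from the 6 samples alone (44.6%), 35 with sample weights (48.3%) and 1 at both thresholds, and 9 to 29 when 1 sample was left out (8.58% to 30.8%). For the difference of LPS effects, 4 (0.900%) became 0 with a pseudocount of 0.1 (0.269%), 10 with a pseudocount of 5 (1.72%), 2 without a filter (0.403%), 2 with a filter of 5 TPM (1.00%), 2 without a trend (0.757%) and 1 at both thresholds, and 1 to 16 when 1 sample was left out (0.353% to 12.6%), and the 6-sample setting does not apply. The filter of 5 TPM tested 32 of the genes. Otherwise the cause was not tested. The replicate numbers do not pair the samples: deviations from the group means correlated between -0.0315 and 0.0383 in 18 same-numbered pairs, none above 0.1. With a replicate block the counts were 6 (UT, 1.43%), 0 (LPS, 1.51%), 41 (WT, 24.9%), 16 (cGAS-/-, 11.9%) and 1 (difference, 0.454%). The number of reads is unknown, so it cannot be said which low values are within counting error.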

Other observations

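The CHR element, letters known from promoters of genes of G2 and mitosis, was searched as TTTGAA or TTCGAA on either strand of the same RefSeq windows. It stood in 11 of 43 DNA replication and S phase genes (25.6%), in 26 of 32 mitosis genes (81.2%) and in 21.7% of all genes. The E2F letters stood in 3 of the 32 mitosis genes (9.38%), in 12 of 45 other replication genes (26.7%), in 6 of 19 regulators of G1 (31.6%) and in 4.58% of the tested genes with a window. These are matches of letters and not sites of binding.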
